A study of Mus musculus with 55 samples.

Results

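Wnt proteins are secreted, lipid-modified signals that bind Frizzled receptors and, in the canonical branch, the coreceptors Lrp5 and Lrp6, which stabilises β-catenin and turns on target genes through TCF/LEF factors. Non-canonical ligands act through Frizzled and Ror receptors on cell shape and movement without β-catenin. Secreted inhibitors hold the pathway in check outside the cell, either by binding the ligand, as secreted frizzled-related proteins and Wnt inhibitory factor do, or by occupying the coreceptor, as the classical Dickkopf proteins do.

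The 8 genes followed here were 3 ligands and 5 secreted inhibitors, taken by gene symbol of the array annotation: Wnt2, Wnt4 and Wnt5a, and Sfrp1, Sfrp2, Frzb, Dkk3 and Wif1. They were measured by 14 probe sets that name a single gene, out of 22626 probe sets and 12393 named genes. The tissue was the optic nerve head (ONH), where retinal axons leave the eye, of C57Bl/6 female mice aged 6 to 8 weeks at surgery. In the crushed group the left optic nerve had been clamped 1 mm behind the eyeball for 10 s, the contralateral group was the unoperated right eye of the same mice, and naïve mice had no surgery. Both ONHs of operated mice were collected at 5 times, from 1 day over 3 days, 1 week and 3 weeks to 3 months. There were thus 11 conditions of 5 samples, each a pool of 2 ONHs on 1 array (55 arrays in all), and the left and right ONHs of the same 2 mice form a pair of samples. The 10 arrays at 3 months were a separate hybridization batch without naïve samples, so they were compared only among themselves. None of the groups had a sham operation, so crush and surgery cannot be told apart.

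In naïve ONHs the astrocyte marker Gfap had an intensity of 8331 to 10414 and the myelin gene Mbp 10823 to 14473, and all 12 fibroblast markers examined were also bright, with Dcn (decorin) at 8417 to 10656, in tissue that the study describes as freed of sclera and meningeal sheath. Photoreceptor markers varied widely inside every group, and their mean log2 intensity ranged from 5.77 to 12.34 over the 5 naïve samples. The contralateral sample of replicate 1 at 3 months stood apart, with the highest photoreceptor level of the 55 arrays (13.05, other contralateral samples at 3 months 5.49 to 11.20) and the lowest fibroblast level among contralateral samples (11.85). Values below are linear intensities, with means ± SD over 5 samples. Log2 fold changes and Benjamini-Hochberg adjusted p are from limma, over all probe sets tested, and a call needed an adjusted p below 0.05 together with a difference of 2-fold or more. Nothing in the labels says more of the samples than their pools, so p-values measure the spread between these samples. These are whole-tissue levels, so fewer cells of a type and less RNA per cell cannot be told apart.

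The 8 genes lie on 8 chromosomes in GRCm38. The ligand genes are Wnt2 (chr6:17985474-18032772), Wnt4 (chr4:137277635-137299501) and Wnt5a (chr14:28504543-28527448). The inhibitor genes are Sfrp1 (chr8:23411383-23449632), Sfrp2 (chr3:83765750-83774314), Frzb (chr2:80411970-80447396), Dkk3 (chr7:112116019-112159482) and Wif1 (chr10:121034004-121100642).

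Wnt2 and Sfrp2 were the 2 genes of the 8 that rose after the crush, and for that reason the 250 bases before a RefSeq start site of each are shown, 5′ to 3′ on the gene's strand (GRCm38.p6, Wnt2 chr6:18030446-18030695, minus strand, and Sfrp2 chr3:83766071-83766320, plus strand). Both stretches lie inside the gene spans given above, so the start sites used are not at the outer ends of those spans. Capitals mark the matches to 4 motifs searched on both strands, namely the AP-1 site with letters TGANTCA, the TCF/LEF site with letters ATCAAAG, the TATA box with letters TATAAA and the GC box with letters GGGCGG.
Wnt2: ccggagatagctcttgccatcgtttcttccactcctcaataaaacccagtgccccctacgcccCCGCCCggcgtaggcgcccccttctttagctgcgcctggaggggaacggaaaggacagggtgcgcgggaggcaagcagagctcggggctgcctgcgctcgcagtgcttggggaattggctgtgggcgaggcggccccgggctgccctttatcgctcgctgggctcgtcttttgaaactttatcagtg
Sfrp2: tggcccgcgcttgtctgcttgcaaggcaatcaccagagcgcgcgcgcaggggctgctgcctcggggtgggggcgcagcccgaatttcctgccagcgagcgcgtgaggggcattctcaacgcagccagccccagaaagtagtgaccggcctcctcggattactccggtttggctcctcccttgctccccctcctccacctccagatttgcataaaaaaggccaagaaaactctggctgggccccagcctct
The Wnt2 stretch held 1 match, a GC box read on the opposite strand and starting 187 bases before the start site, and the Sfrp2 stretch held none. Of 32817 RefSeq promoter stretches of the same length, 32.72% held a GC box, 12.37% a TATA match, 6.75% an AP-1 match and 3.21% a TCF/LEF match. Both stretches were 63.6% G and C. A match is a description of letters and no measured binding, and the other 6 genes are given by name only.

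Wnt2, a canonical ligand known from lung and vascular development, was the gene of the 8 with the largest response, and it was near the lower end of the scale without injury. At 1 day its intensity was 999.9, 1103, 822, 659.6 and 1086 in crushed ONHs, against 20.1, 11.2, 25.9, 55.8 and 27.3 in contralateral ONHs. The lowest crushed sample was far above the highest contralateral one, and the log2 fold change was 5.06 ± 0.34 (SE, n = 5 pairs, limma adjusted p = 4e-10), or 33.3-fold. Over the 25 uninjured arrays (naïve and contralateral ONHs up to 3 weeks), 22 were under an intensity of 50, with a median of 25.7. Values under 20 were set to 20 before the log2 step. This applied to 1, 4 and 3 contralateral values of Wnt2 at 1 day, 3 days and 1 week and to 2 at 3 months, where its fold changes are therefore understated, and to none at 3 weeks.

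The rise of Wnt2 continued at 3 days and 1 week. Crushed ONHs had 963.8, 441.5, 392.4, 435.6 and 824.7 at 3 days, against 13.0, 11.4, 13.2, 19.3 and 62.0 in contralateral ONHs (log2 fold change 4.51 ± 0.34, adjusted p = 2.3e-09). At 1 week the values were 491.2, 564.8, 302.1, 824.8 and 460.9 in crushed ONHs, against 17.9, 16.8, 43.1, 17.7 and 29.3 in contralateral ONHs (4.32 ± 0.34, adjusted p = 8.2e-09). The groups were fully apart at both times. At 3 weeks crushed ONHs had 129.3, 80.7, 131.2, 132.2 and 115.5, against 36.8, 41.4, 21.7, 20.8 and 25.7 in contralateral ONHs (2.04 ± 0.34, adjusted p = 0.00022), so the groups still did not overlap, but the difference was smaller. Tested as a difference of crush effects, the effect on Wnt2 at 3 weeks was different from that at 1 week by -2.28 ± 0.48 (adjusted p = 0.0038) and from that at 1 day by -3.02 ± 0.48 (adjusted p = 6e-05) on the log2 scale.

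At 3 months Wnt2 had 220.1, 69.5, 132.4, 47.1 and 104.1 in crushed ONHs, against 6.65, 51.5, 32.7, 17.1 and 44.2 in contralateral ONHs. The crushed sample of replicate 4 fell below the highest contralateral sample, and although crushed was the higher in 5 of 5 pairs the log2 difference of 1.68 ± 0.43 was not called (adjusted p = 0.16, unadjusted p = 0.0058). With 5 pairs in a model of their own, the 3-month comparison called 0.207% of all probe sets as higher and 0.255% as lower, far fewer than any earlier time.

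**Figure D1:**
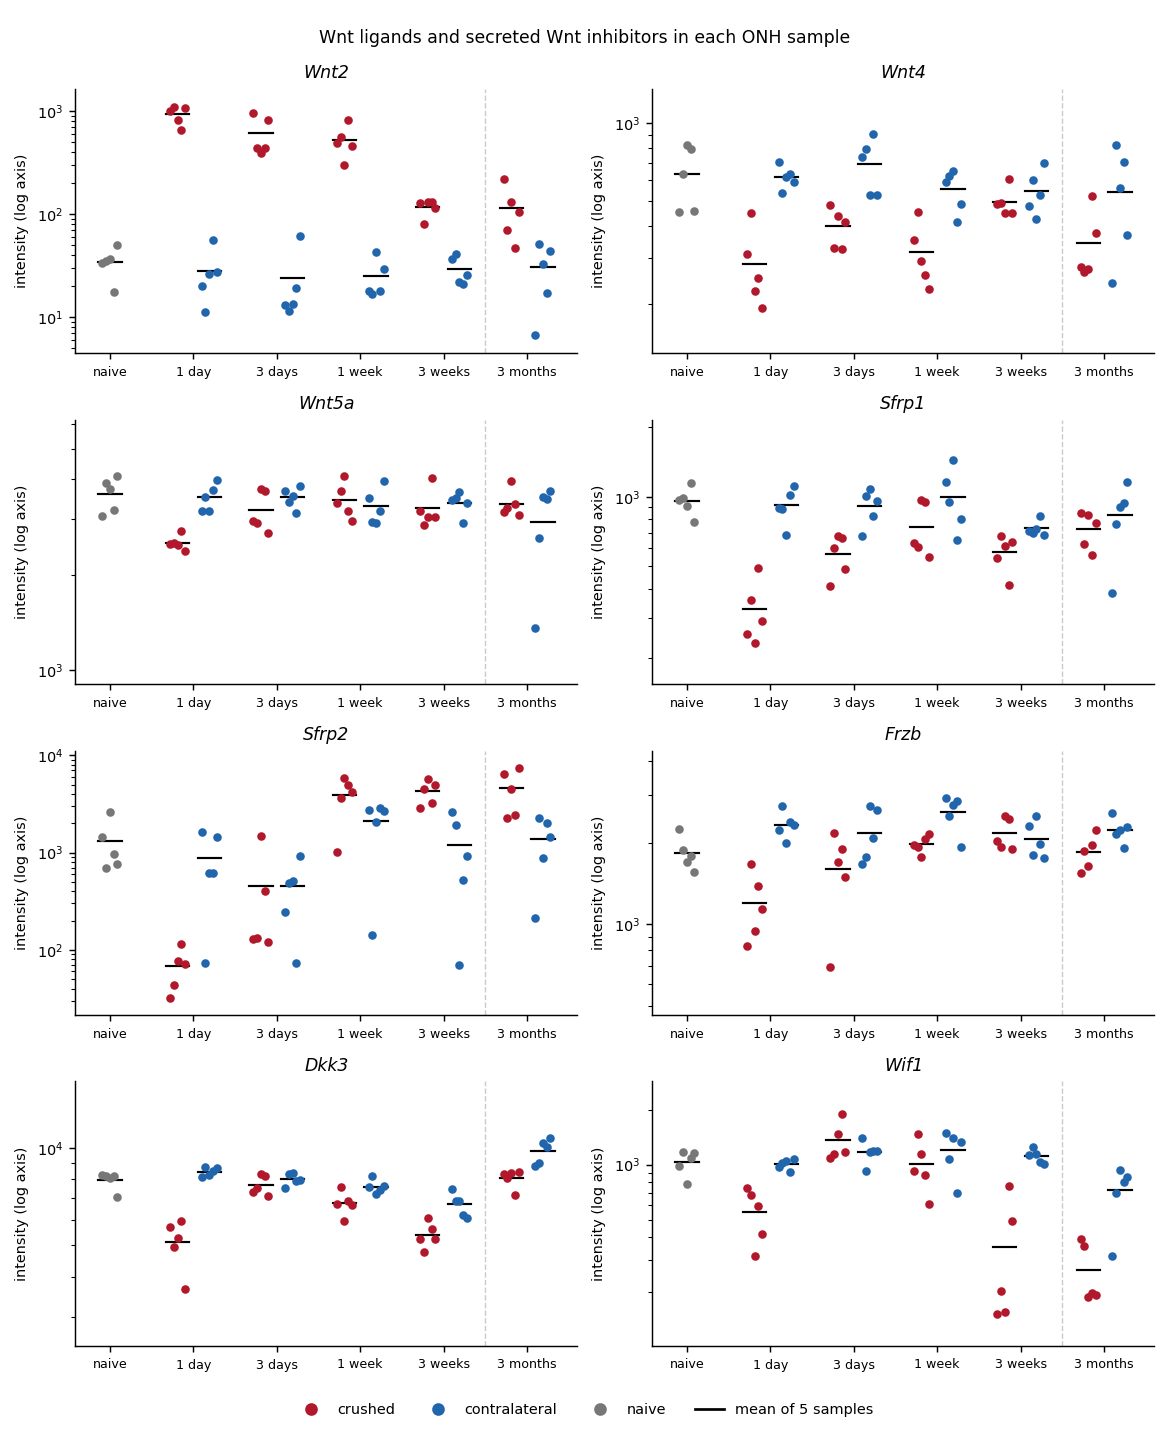
Intensity (log axis) of the 8 genes in each of 55 samples, by the brightest probe set of each gene. Points are samples, with crushed (red) to the left of contralateral (blue) at each time and naïve (grey) at the start of the axis, lines are means of 5 samples, and the dashed line parts the 3-month batch. Wnt2 stands at 659.6 to 1103 in crushed ONHs at 1 day, and Wif1 falls below all contralateral samples in crushed ONHs at 3 weeks.

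Wnt4, a ligand best known from kidney and reproductive tract development, went the other way. At 1 day it had 311.3, 450.7, 224.6, 252.2 and 193.8 in crushed ONHs, against 705.6, 534.3, 617.5, 632.5 and 592.7 in contralateral ONHs (log2 fold change -1.16 ± 0.19, adjusted p = 2.6e-05). No crushed sample reached the lowest contralateral one. At 3 days Wnt4 averaged 399 ± 68.2 in crushed ONHs and 697 ± 167 in contralateral ONHs (-0.79 ± 0.19, adjusted p = 0.0021), and at 1 week 317 ± 88.6 in crushed ONHs and 554 ± 98.7 in contralateral ONHs (-0.83 ± 0.19, adjusted p = 0.0014). Both differences were under 2-fold, with crushed the lower in 5 of 5 pairs at each time. At 3 weeks Wnt4 averaged 496 ± 64.3 in crushed ONHs and 546 ± 108 in contralateral ONHs. The effect there exceeded that at 1 day by 1.04 ± 0.27 on the log2 scale (adjusted p = 0.0044). This difference dropped under 2-fold, to between 0.93 and 0.999, without pair 3, 4 or 5 of 1 day or pair 3 or 4 of 3 weeks. It was 0.99 under quantile normalization and 0.997 with the photoreceptor level as a covariate. At 3 months the values were 343 ± 110 in crushed ONHs and 540 ± 238 in contralateral ONHs (-0.58 ± 0.29, adjusted p = 0.41).

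Wnt5a, the ligand most studied for non-canonical signalling, was bright and steady. Over the 25 uninjured arrays it ranged from 2912 to 4113. The 1-day values were 2507, 2514, 2482, 2755 and 2385 in crushed ONHs, against 3190.4, 3527, 3190.6, 3706 and 3969 in contralateral ONHs. These groups did not overlap, yet the log2 difference of -0.47 ± 0.12 (adjusted p = 0.0023) was far from 2-fold. From 3 days to 3 months its log2 difference lay between -0.15 and 0.28, with adjusted p of 0.36 or more. Its dimmer probe set gave -0.48 ± 0.20 at 1 day (adjusted p = 0.052).

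The secreted frizzled-related proteins carry a cysteine-rich domain like that of the Frizzled receptors and bind Wnt ligands with it. Sfrp1 fell at 1 day to 255.8, 356.7, 232.0, 494.0 and 289.8 in crushed ONHs, against 893.8, 889.7, 681.8, 1016 and 1118 in contralateral ONHs. The groups were apart, with a log2 fold change of -1.53 ± 0.17 (adjusted p = 2.9e-07). Of the 3 dimmer Sfrp1 probe sets, 2 gave calls of -1.61 and -1.67, and the third gave -0.46 ± 0.19 (adjusted p = 0.049). At 3 days Sfrp1 averaged 568 ± 115 in crushed ONHs and 911 ± 161 in contralateral ONHs (-0.69 ± 0.17, adjusted p = 0.0031), again with no overlap but under 2-fold. Later log2 differences of the brightest probe set were -0.42 at 1 week, -0.35 at 3 weeks and -0.12 at 3 months, with adjusted p from 0.057 to 0.85. The dimmer probe set with -1.61 at 1 day gave -0.59 at 1 week (adjusted p = 0.0089) and -0.57 at 3 weeks (adjusted p = 0.022). The one with -1.67 gave -0.78 (adjusted p = 0.014) and -0.66 (adjusted p = 0.056), and the third -0.09 (adjusted p = 0.74) and -0.36 (adjusted p = 0.2). The effect at 3 weeks exceeded that at 1 day by 1.18 ± 0.24 (adjusted p = 0.00075).

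Frzb, also called Sfrp3 and first described in cartilage, followed Sfrp1 at a smaller size. At 1 day it had 833.7, 1670.4, 942.6, 1379 and 1140 in crushed ONHs, against 2222, 2728, 1997, 2392 and 2315 in contralateral ONHs. All 5 crushed samples were below the lowest contralateral one. The log2 fold change was -1.004 ± 0.16 (adjusted p = 2e-05), a 2.01-fold fall that only just met the fold threshold and fell short of it on the dimmer probe set (-0.93), under quantile normalization (-0.99) and without pair 1, 3 or 5. At 3 days Frzb averaged 1592 ± 562 in crushed ONHs and 2180.1 ± 493 in contralateral ONHs (-0.52 ± 0.16, adjusted p = 0.012). The difference was -0.38 at 1 week, 0.07 at 3 weeks and -0.27 at 3 months, none of them called, and the effect at 3 weeks exceeded that at 1 day by 1.07 ± 0.22 (adjusted p = 0.00084), or by 0.97 without pair 1 of 1 day.

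Sfrp2, known for its expression in fibroblasts and in tissue repair, had the widest swing of the inhibitors and the widest spread. In crushed ONHs at 1 day it had 32.1, 43.3, 76.2, 115.3 and 72.3, against 1617, 72.8, 624, 614.5 and 1446 in contralateral ONHs. The contralateral sample of replicate 2 lay within the crushed range, and the other 4 were above it. The log2 fold change was -3.24 ± 0.87 (adjusted p = 0.0036) and was lower in crushed ONHs in 5 of 5 pairs. At 3 days crushed ONHs had 130.02, 133.4, 1468, 405.9 and 119.2, against 246.8, 485.7, 511.3, 73.3 and 930.7 in contralateral ONHs, with 2 of 5 pairs higher in crushed ONHs (-0.35 ± 0.87, adjusted p = 0.78).

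From 1 week on the level of Sfrp2 in crushed ONHs was above all values it had at 1 day and 3 days, in all samples but 1 at 1 week. At 1 week crushed ONHs had 1012, 3643, 5867, 4939.7 and 4224, against 2714, 142.6, 2081, 2908 and 2662 in contralateral ONHs, which was not called (1.24 ± 0.87, adjusted p = 0.27). At 3 weeks crushed ONHs had 2883, 4492, 5741, 3231 and 4955, against 2615, 1933, 69.6, 520.1 and 914.7 in contralateral ONHs. The crushed samples were all above the contralateral ones, and Sfrp2 rose by 2.56 ± 0.87 on the log2 scale (adjusted p = 0.039). The call was lost under several settings: without pair 3, where the contralateral value was 69.6, the log2 difference was 1.61 (adjusted p = 0.23), and without pair 4 or pair 5 the adjusted p was 0.089 or 0.083, and with no filter on low values it was 0.064 at the same log2 difference. At 3 months crushed ONHs had 6470.4, 2266, 4484, 2449 and 7469, against 213.3, 2250.2, 890.4, 2025 and 1461 in contralateral ONHs. Again no crushed sample was below a contralateral one, but the log2 difference of 1.98 ± 0.67 was not called (adjusted p = 0.27), and it was 1.24 without pair 1.

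Between 1 day and 3 weeks the crush effect on Sfrp2 thus changed sign, and the difference of 5.79 ± 1.23 on the log2 scale passed the test (adjusted p = 0.00098). The contralateral spread was large at every time. Over the 25 uninjured arrays Sfrp2 ran from 69.6 to 2908, with a coefficient of variation of 80.0%, against 9.28% for Dkk3 and 10.1% for Wnt5a.

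**Figure D2:**
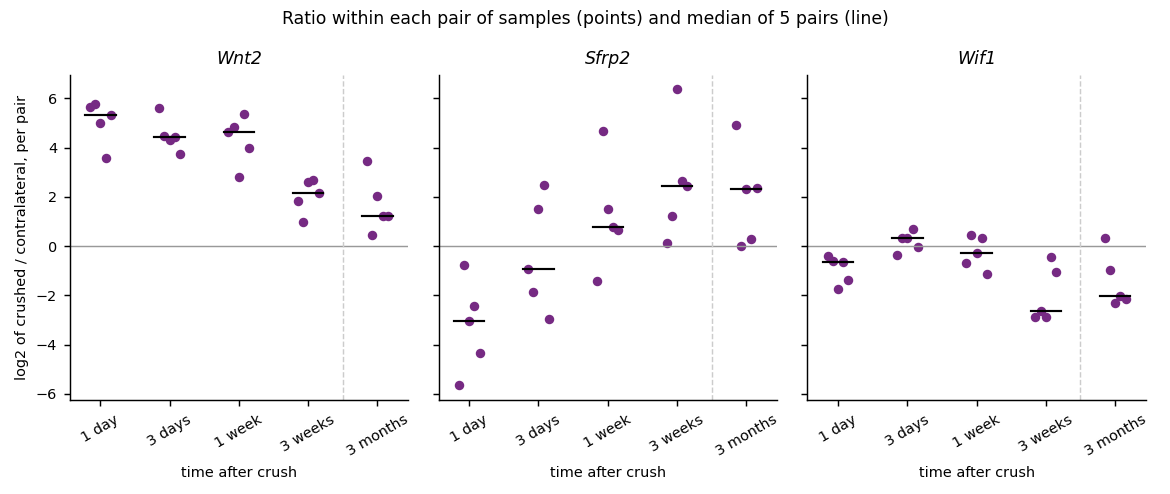
Log2 ratio of crushed over contralateral intensity within each pair of samples for Wnt2, Sfrp2 and Wif1, by time after the crush. Points are pairs, the black line is the median of 5 pairs and the dashed line parts the 3-month batch. Wnt2 lies above 0 in 5 of 5 pairs at every time, Sfrp2 moves from below 0 in 5 of 5 pairs at 1 day to above 0 in 5 of 5 pairs at 3 weeks and 3 months, and Wif1 lies below 0 in 5 of 5 pairs at 3 weeks.

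Dkk3, a divergent Dickkopf protein expressed by glia in the eye, was the brightest of the 8 probe sets, at 6069 to 8755 over the uninjured arrays. At 1 day it had 5714, 4934, 5286, 5969.6 and 3669 in crushed ONHs, against 8112, 8755, 8267, 8496 and 8652 in contralateral ONHs. The groups were far apart relative to their spread, but the log2 difference of -0.75 ± 0.08 (adjusted p = 1.6e-07) was under 2-fold. It was -0.06 at 3 days and -0.17 at 1 week, with adjusted p of 0.57 and 0.087. At 3 weeks Dkk3 averaged 5386 ± 497 in crushed ONHs and 6697 ± 574 in contralateral ONHs (-0.32 ± 0.08, adjusted p = 0.0071), lower in 5 of 5 pairs. The dimmer Dkk3 probe set gave -0.18 there (adjusted p = 0.2). At 3 months Dkk3 had 8316, 8092, 8350.04, 7180.2 and 8445 in crushed ONHs, against 8797, 8967, 10358, 10052 and 10716 in contralateral ONHs. The groups did not overlap, but the log2 difference was small, at -0.27 ± 0.07 (adjusted p = 0.18).

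Wif1, which binds Wnt proteins through its WIF domain, was the inhibitor called as lower at 3 weeks. At 1 day it had 742.5, 680.8, 317.0, 589.5 and 415.0 in crushed ONHs, against 967.3, 1025, 1048, 910.6 and 1079 in contralateral ONHs, groups that did not overlap but whose log2 difference of -0.94 ± 0.30 (adjusted p = 0.013) stopped short of 2-fold, though it was -1.02 to -1.08 and called without pair 1, 2 or 4. At 3 days it averaged 1359 ± 339 in crushed ONHs and 1170.5 ± 169 in contralateral ONHs, and at 1 week 1003 ± 320.1 in crushed ONHs and 1196 ± 317 in contralateral ONHs. Those groups overlapped, with adjusted p of 0.65 and 0.52. At 3 weeks Wif1 fell to 152.3, 202.4, 155.1, 761.5 and 487.8 in crushed ONHs, against 1126, 1245, 1148, 1027 and 1011 in contralateral ONHs. The contralateral samples lay close together and above all crushed ones, and the log2 fold change was -1.98 ± 0.30 (adjusted p = 0.0001), or 3.93-fold lower.

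The late fall of Wif1 was tested directly against 1 week, when its level was nearer that of the contralateral ONH. The effect at 3 weeks differed from that at 1 week by -1.71 ± 0.43 on the log2 scale (adjusted p = 0.012). It differed from that at 1 day by -1.035 ± 0.43 (adjusted p = 0.065), which was not called. At 3 months crushed ONHs had 391.6, 355.9, 188.5, 199.1 and 192.8, against 315.5, 696.1, 936.5, 805.9 and 859.0 in contralateral ONHs. The contralateral value of 315.5 belongs to the sample rich in photoreceptor transcripts and is the only overlap. The log2 difference was -1.43 ± 0.40 (adjusted p = 0.19), it was -1.86 without that pair (adjusted p = 0.068), and it was called when the pairs were left out of the model (adjusted p = 0.045 with no replicate block).

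**Figure D3:**
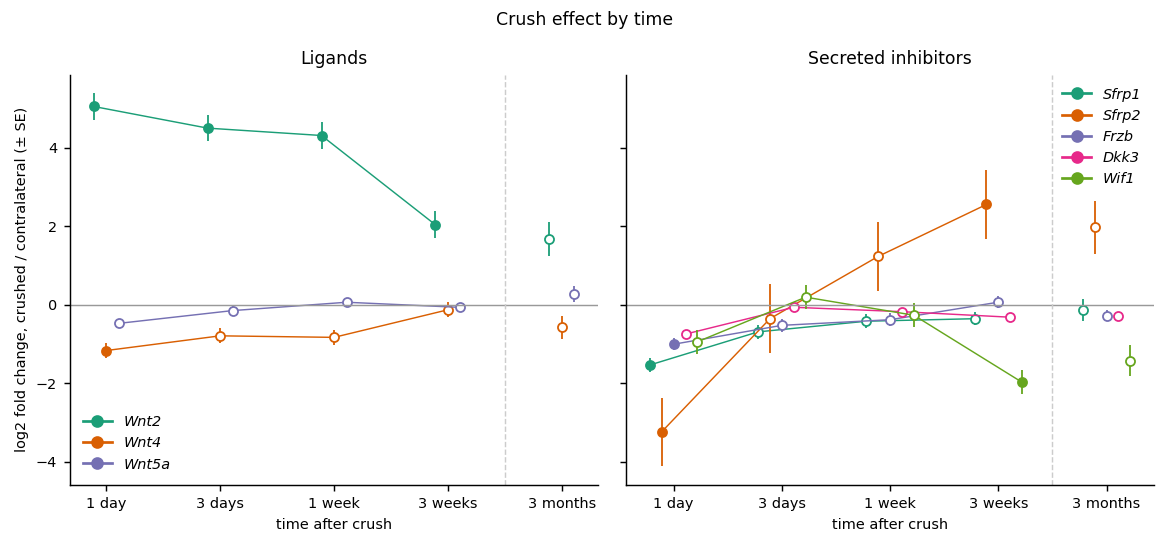
Log2 fold change of crushed over contralateral ONHs (± SE from limma, 5 pairs at each time) for the 3 ligands and the 5 secreted inhibitors, by time after the crush. Filled points were called and open points were not, lines join the 4 times of the first batch, and the dashed line parts the 3-month batch. The values of Wnt2 stay above 2 from 1 day to 3 weeks, and Sfrp2 crosses from -3.24 at 1 day to 2.56 at 3 weeks.

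Counted together at 1 day, 1 of the 8 genes was called as higher (Wnt2) and 4 as lower (Wnt4, Sfrp1, Sfrp2 and Frzb), where 7.02% of all probe sets tested were called as higher and 7.44% as lower. The other 3 genes were also lower in 5 of 5 pairs, at less than 2-fold, and agreement of pairs was not counted over all probe sets. By adjusted p under 0.05 alone, 53.8% of all probe sets tested passed at 1 day. The median log2 difference of the 8 genes was -0.97, beside -0.03 over all probe sets. At 3 days and at 1 week Wnt2 was the one gene called, as higher (background 6.6% and 6.21% higher, 2.2% and 3.53% lower). At 3 weeks Wnt2 and Sfrp2 were called as higher and Wif1 as lower (background 2.36% higher and 1.75% lower). At 3 months none of the 8 genes was called by limma, 4 had an unadjusted p under 0.05, and the methods' t-test put 2 under that threshold. Over all probe sets 2649 of 18823 were under it in limma, and 2790 of 22626 by the methods' t-test. Between times, 5 genes had a called difference of 3 weeks from 1 day (background 12.8%) and 2 of 3 weeks from 1 week (background 4.5%). The steps between 1 day and 3 days (background 4.93%) and between 3 days and 1 week (background 3.12%) gave no call by the brightest probe sets, with 5 and 0 genes at an unadjusted p under 0.05. Of all 19313 probe sets tested 5452 and 4864 had such a p. For the step between 1 day and 3 days Dkk3 (0.68, adjusted p = 0.0004) and Sfrp1 (0.84, adjusted p = 0.023) had an adjusted p under 0.05 but less than 2-fold, and 2 dimmer probe sets of Sfrp1 were called (1.04, adjusted p = 0.0064, and 1.07, adjusted p = 0.04).

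Several cell type markers moved at 1 day beside the falls of Wnt4, Sfrp1, Sfrp2 and Frzb. The mean log2 intensity of the 12 fibroblast markers was 11.42 to 11.93 in crushed ONHs and 12.41 to 12.69 in contralateral ONHs at 1 day, and 4 of the 12 markers were called as lower. Of 10 astrocyte markers 4 were called as lower, of 8 oligodendrocyte markers 4, and of 10 mural cell markers 3, beside 7.44% of all probe sets tested. The summed fibroblast intensity was 46155 to 55704 in crushed ONHs and 69952 to 84065 in contralateral ONHs. With the fibroblast level as a covariate in the blocked model, the 1-day value of Wnt4 was 0.41 ± 0.41 and that of Sfrp2 was 0.61 ± 2.41, neither of them called. Frzb was at -1.35 ± 0.46 (adjusted p = 0.064), while Sfrp1 was still called at -1.71 ± 0.51 (adjusted p = 0.035) and Wnt2 at 7.24 ± 0.86 (adjusted p = 0.0002). Wif1, Wnt5a and Dkk3, lower but under 2-fold without the covariate, were at -0.06, -0.07 and -0.48 with it (adjusted p = 0.97, 0.92 and 0.17). Since fibroblast levels did not overlap between the groups at 1 day, the crush and the fibroblast level cannot be told apart there. At 3 weeks the fibroblast levels overlapped, at 12.36 to 12.58 in crushed ONHs and 12.33 to 12.53 in contralateral ONHs, and with the same covariate Wif1 was at -2.02 (adjusted p = 0.0001), Wnt2 at 1.93 (adjusted p = 0.00013) and Sfrp2 at 2.35 (adjusted p = 0.051). In the same way the difference of 3 weeks from 1 day for Sfrp2 was 1.74 ± 2.65 (adjusted p = 0.75) and that for Wnt4 was -0.62 ± 0.45. For Sfrp1 it was 1.37 ± 0.56 (adjusted p = 0.18) and for Frzb 1.43 ± 0.51 (adjusted p = 0.12), neither of them called. For Wnt2 it was still called, at -5.31 ± 0.94 (adjusted p = 0.0071).

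Beside the rise of Wnt2, 3, 4, 5 and 2 of 10 microglia and macrophage markers were called as higher from 1 day to 3 weeks, and 3, 4, 0 and 0 of 10 endothelial markers. Of all probe sets tested 7.02%, 6.6%, 6.21% and 2.36% were called as higher at these times. At 1 day 1 microglia and macrophage marker was called as lower, 4 were lower at an unadjusted p under 0.05 in limma, and the list median was 0.03. The summed endothelial intensity was 19358 to 26900.0 in crushed ONHs and 17363 to 23553 in contralateral ONHs at 1 day, and 25045 to 37831 in crushed ONHs and 15676 to 21719 in contralateral ONHs at 3 days. The summed microglia and macrophage intensity was 24332 to 37172 in crushed ONHs and 28378 to 32880.1 in contralateral ONHs at 1 day, when Wnt2 was highest, and 41687 to 63694 in crushed ONHs and 26301 to 33419 in contralateral ONHs at 1 week. Beside the fall of Wif1 at 3 weeks, 2 of 8 oligodendrocyte markers were called as lower (1.75% of all probe sets tested), with a summed intensity of 36206 to 54076 in crushed ONHs and 59938 to 67454 in contralateral ONHs. At 1 week, when Wif1 was not called, that sum was 32219 to 46444 in crushed ONHs and 61295 to 73133 in contralateral ONHs. The part of these cells in the results of Wnt2 and Wif1 was not tested.

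Across the 25 uninjured arrays, Sfrp2 followed the fibroblast level (Pearson's r = 0.589, permutation p = 0.002, adjusted p = 0.032, and Spearman's rho = 0.554, permutation p = 0.0046, adjusted p = 0.073, over 16 relations of the 8 genes with fibroblast and photoreceptor levels). Without the 2 arrays farthest from the median fibroblast level r was 0.456, and after removal of group means it was 0.626. No other gene of the 8 had an adjusted p under 0.05 with either level. Photoreceptor level as a covariate left each count of called genes unchanged at the 5 times. With it the difference of 3 weeks from 1 day for Wnt4 was 0.997, under 2-fold and no longer called.

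**Figure D4:**
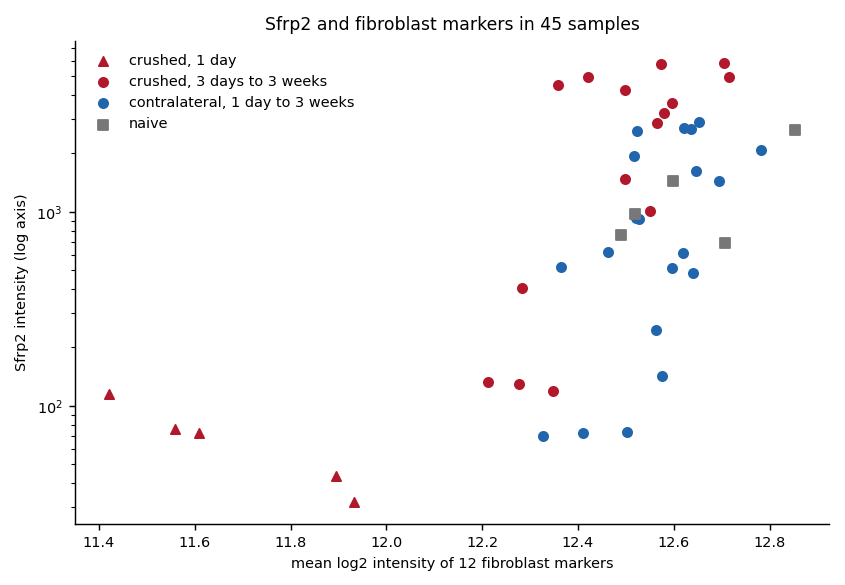
Intensity of Sfrp2 (log axis) against the mean log2 intensity of 12 fibroblast markers in the 45 samples of the first batch, each point a sample, with crushed ONHs in red, contralateral in blue and naïve as grey squares. The 5 crushed samples at 1 day (triangles) lie apart at the low end of the fibroblast axis, with Sfrp2 at 32.1 to 115.3, and the lowest contralateral sample has a Sfrp2 intensity of 69.6.

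The unoperated eye was compared with naïve ONHs to see whether the contralateral level itself moved. None of the 7 genes tested was called at any time from 1 day to 3 weeks, where the background was 0% at 1 day and at 3 days, 0.112% at 1 week and 0.691% at 3 weeks. Of these genes 1, 0, 1 and 2 had an unadjusted p under 0.05 in limma at the 4 times, as by the methods' t-test. Of all 18669 probe sets tested in limma 1268, 1036, 2689 and 5171 had such a p. The gene at 1 day and at 1 week was Frzb, with 2331 ± 267 and 2590 ± 402 in contralateral ONHs and 1834 ± 262 in naïve ONHs. Its log2 differences were 0.35 ± 0.14 (limma adjusted p = 0.68) and 0.49 ± 0.14 (adjusted p = 0.11), and 0.12 and 0.21 by the dimmer probe set. At 1 day crushed ONHs had 1193 ± 338, so the fall of Frzb was smaller beside naïve than beside contralateral ONHs. By its brightest probe set Dkk3 alone had an adjusted p under 0.05, at 3 weeks, with 6697 ± 574 in contralateral ONHs and 7959 ± 516 in naïve ONHs (-0.25 ± 0.05, adjusted p = 0.0072). The dimmer Dkk3 probe set gave -0.21 there (adjusted p = 0.014). For Sfrp1 at 3 weeks the brightest probe set gave -0.38 ± 0.17 (adjusted p = 0.14), while the dimmer ones gave -0.61 ± 0.16 (adjusted p = 0.019), -0.63 ± 0.21 (adjusted p = 0.058) and -0.14 ± 0.18 (adjusted p = 0.65). Wnt2 was too dim for the test, at 11.2 to 62.0 in contralateral ONHs and 17.4 to 50.3 in naïve ONHs.

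The other genes of the pathway were counted from lists of ligands, secreted inhibitors, receptors, secretion factors, the R-spondin axis, intracellular transducers and target genes, which hold 78 further genes on the array, 67 of them tested up to 3 weeks. At 1 day 4 rose and 14 fell (5.97% and 20.9%, beside 7.02% and 7.44% of all probe sets), and at 3 days 3 rose and 3 fell (4.48% each, beside 6.6% and 2.2%). At 1 week 3 rose and 5 fell (4.48% and 7.46%, beside 6.21% and 3.53%), and at 3 weeks 4 rose and 1 fell (5.97% and 1.49%, beside 2.36% and 1.75%). At 3 months none of 64 was called. The 21 transducers tested up to 3 weeks and the 20 tested at 3 months, among them the machinery around β-catenin, had no call, with 6, 6, 11, 6 and 2 of them at an unadjusted p under 0.05. Of all 19313 probe sets tested 11313, 9281, 9530 and 6551 had such a p from 1 day to 3 weeks. At 3 months it was 2649 of 18823.

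Among the other ligands 1 of 10 rose and 6 of 10 fell at 1 day, with a list median of -1.22 on the log2 scale, beside -0.03 over all probe sets. Wnt6 averaged 182 ± 85.3 in crushed ONHs and 1043 ± 219.9 in contralateral ONHs at 1 day (log2 fold change -2.63 ± 0.22, adjusted p = 6.7e-09), and it remained called as lower at 3 days (-1.62) and 1 week (-1.19). Wnt3 was the ligand still lower at 3 weeks, at 56.6 ± 26.3 in crushed ONHs and 237 ± 54.0 in contralateral ONHs (-2.17 ± 0.26, adjusted p = 8.5e-06). Wnt7b, a canonical ligand of the nervous system and its vessels, rose at 1 day to 955 ± 237 in crushed ONHs, against 228 ± 31.1 in contralateral ONHs (2.03 ± 0.23, adjusted p = 3.4e-07). Wnt10a fell at 1 day (-2.11) and 1 week (-1.40).

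Of the other secreted inhibitors, Dkk2 rose at 3 days to 265 ± 98.8 in crushed ONHs, against 61.0 ± 35.6 in contralateral ONHs (2.23 ± 0.49, adjusted p = 0.0011). Sfrp4, another secreted frizzled-related gene, rose at 3 weeks to 3012 ± 671 in crushed ONHs, against 988 ± 582 in contralateral ONHs (1.83 ± 0.49, adjusted p = 0.011). Sfrp2 was also called as higher at that time, while Frzb of the same family was not (0.07). Sostdc1 fell at 1 day (-1.74 ± 0.58, adjusted p = 0.015). The list median of these inhibitors was 0.12 at 1 day and 0.54 at 3 weeks, over 5 genes.

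Calls were also made among receptors, secretion factors, the R-spondin axis and target genes. Of 14 receptors tested 1 fell at 1 day, Fzd9 (-1.62 ± 0.22), where 7.44% of all probe sets tested were called as lower. At 3 weeks 1 of 14 rose, Fzd4, the receptor of retinal vessels (1.22 ± 0.19, adjusted p = 9.5e-05), where 2.36% of all were called as higher. Porcn, which attaches the lipid to Wnt proteins, fell at 1 day (-1.11 ± 0.10). In the R-spondin axis, which sets the amount of Frizzled at the cell surface, Rspo2 averaged 271 ± 151 in crushed ONHs and 1346 ± 359.9 in contralateral ONHs at 1 day (-2.48 ± 0.31, adjusted p = 1.3e-06), Rnf43 fell at 1 day, 3 days and 1 week (-1.45, -1.06 and -1.35), and Rspo1 rose at 3 weeks (1.48 ± 0.20). Of 15 target genes tested 2 rose and 4 fell at 1 day, where 7.02% and 7.44% of all probe sets tested did. Myc, which many other signals also induce, rose at 1 day to 1282 ± 474 in crushed ONHs, against 112 ± 10.7 in contralateral ONHs (3.44 ± 0.25, adjusted p = 9.4e-10), Ccn4 rose from 1 day to 1 week (1.31, 1.19 and 1.93), and Lgr5 rose at 1 week (2.48 ± 0.33, adjusted p = 6.5e-06). Apcdd1, an inhibitor that is itself a target, fell at 1 day (-1.81 ± 0.18, adjusted p = 7.2e-08). The other targets that fell at 1 day were Rnf43, Tnfrsf19 (-1.24 ± 0.13) and Axin2 (-1.21 ± 0.12, adjusted p = 3.7e-08). Axin2 was at -0.54, -0.72 and -0.47 at 3 days, 1 week and 3 weeks, under 2-fold (adjusted p = 0.00084, 4.6e-05 and 0.0063).

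**Figure D5:**
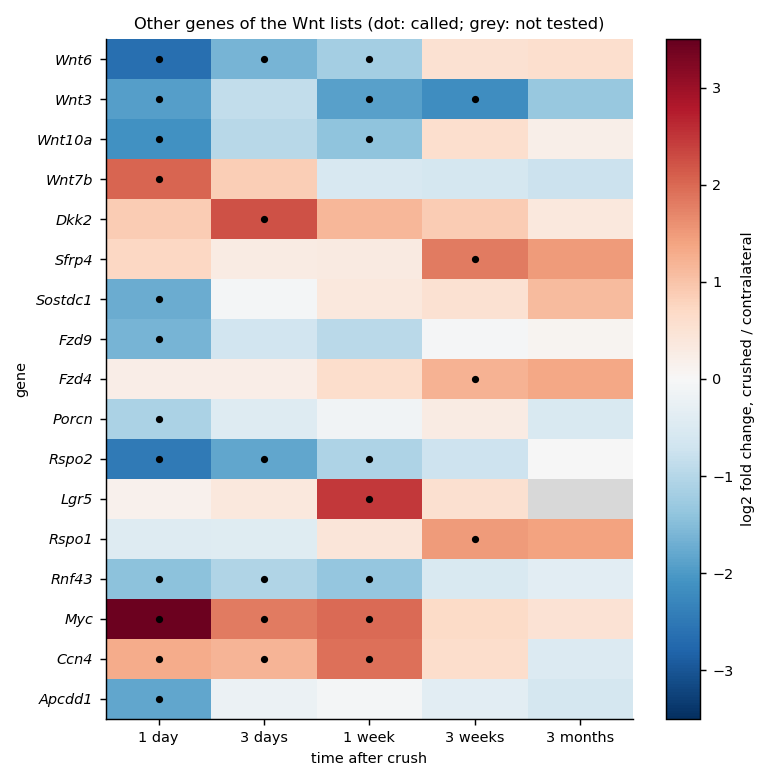
Log2 fold change of crushed over contralateral ONHs (colour) for other genes of the Wnt lists that were called at 1 or more times, at most 4 for each list, by time after the crush. Dots mark calls and grey marks a gene not tested. More dots stand at 1 day than at any later time, Wnt6, Rspo2 and Rnf43 are called as lower up to 1 week, and Fzd4, Rspo1 and Sfrp4 are called as higher at 3 weeks.

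The levels of the 8 genes over the 45 arrays of the first batch were set beside those of all other named genes, as a description in which the arrays share their time and crush groups. The 3 genes most like Wnt2 were Adam8, Clec4d and Aprt, with Pearson's r of log2 intensity of 0.96 to 0.97. Those most like Sfrp2 were Aspn, Mme and Clec11a (0.86 to 0.89), those most like Sfrp1 were Amot, Reck and Fmo1 (0.88 to 0.89), and those most like Dkk3 were Spon1, Timp2 and Slc1a3 (0.89 to 0.92). Wnt4 was closest to Tppp3, Fam174b and Kcnk2 (0.88 to 0.90), Wnt5a to Laptm4a, Mgst1 and Gas1 (0.80 to 0.82), Frzb to Foxo3, Ctsf and Gpr162 (0.77 to 0.79), and Wif1 to Rgs2, Nat8f5 and Oaz2 (0.74 to 0.76). Wif1 and Frzb thus had no gene as close to them as the genes closest to Wnt2.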

How the data were processed

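RNA of RIN above 9 was amplified (NuGEN Ovation V2) and hybridized by the authors to Affymetrix mouse expression arrays. They deposited, for each batch, DChip values after invariant-set normalization, as 1 linear intensity for each probe set from a PM/MM difference model. Of 22690 probe sets, 64 controls were left out; 20380 carry 1 gene symbol, 691 several and 1555 none. Intensities were set to at least 20 before log2, which touched 9.90% of values, and probe sets with at least 5 arrays at 50 were tested. Array medians were 459 to 554 in the first batch and 494 to 598 in the second. Detection calls were not used here, so a dim value has no bound.

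Crushed and contralateral samples were compared in limma 3.58.1 (R 4.3.3, data.table, version 1.17.8; lmFit and eBayes with trend), each pair being a block and each time having its own crush coefficient (40 arrays), in a separate model at 3 months (10 arrays), and without a block against naïve samples (25 arrays). The pairing comes from the design, as both eyes of the same 2 mice; taking equal replicate numbers as pairs, deviations from the group means correlated by -0.45 to 0.52. A called change has an adjusted p under 0.05 and is at least 2-fold; background percentages are calls over all probe sets tested. Each gene is given by its brightest single-gene probe set. The models recovered known changes in simulated data. The methods' t-test, on linear values, and the 3 criteria of the study (90% lower bound of the fold above 2, a difference over 100 and p under 0.05) were alternatives. Promoter letters are from RefSeq (GRCm38.p6), which held 5 of the 8 genes here. Named other Wnt genes are called ones, at most 4 a list by largest change, and the 3 most alike genes for each of the 8. Tnfrsf19 and Axin2 are named besides. The 8 genes, lists and tests were chosen with earlier results of these data known. Figures used Python 3.11.15 with matplotlib 3.10.9, numpy 2.4.6, pandas 2.3.3 and scipy 1.17.1.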

Additional observations from a re-analysis of the deposited data

Results flagged for a closer look

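Of 88 sets of 5 samples (8 genes in 11 conditions), 8 had a sample set apart from the other 4 on the log2 scale by more than Dixon's critical value of 0.71, and chance alone gives about 1 in 20. Wnt2 was high at 61.96 in the contralateral sample of replicate 5 at 3 days and low at 80.74 in the crushed sample of replicate 2 at 3 weeks. Sfrp2 was low at 1012.2 in the crushed sample of replicate 1 and at 142.59 in the contralateral sample of replicate 2, both at 1 week. Wnt5a was high at 4046.0 in the crushed sample of replicate 4 at 3 weeks. Dkk3 was low at 7180.17 in the crushed sample of replicate 4 at 3 months and at 7043.79 in the naïve sample of replicate 5. Wif1 was low at 315.52 in the contralateral sample of replicate 1 at 3 months, the array with the highest photoreceptor level; 7 of the 8 genes, all but Frzb, had their lowest contralateral value at 3 months there.

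The crush effect differed between times, by limma's test of the difference, for 6 of the 8 genes in 7 comparisons. Between 3 weeks and 1 day it differed by 5.79 for Sfrp2, 1.18 for Sfrp1, 1.07 for Frzb, 1.04 for Wnt4 and -3.02 for Wnt2 on the log2 scale. Between 3 weeks and 1 week it differed by -2.28 for Wnt2 and -1.71 for Wif1.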

How the results depend on the processing

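Of the 10 called differences between crushed and contralateral ONHs, 150 of 174 alternative values kept their direction and call, 22 lost the call and 2 changed sign. Of the 30 not called, 491 of 523 kept direction and side, 20 gained a call by the rule of the alternative and 12 changed sign. For the methods' t-test that rule had no fold threshold, so the gains include changes under 2-fold, such as Dkk3 at 1 week (-0.17). With the fibroblast level as a covariate and the replicate block, the count at 1 day was 2 in place of 5, Wnt4 was at 0.41 and Sfrp2 at 0.61 at 1 day, Sfrp2 at 0.695 and Dkk3 at 0.0088 at 3 days, and, in an alternative chosen after seeing the data, the count for 3 weeks against 1 day was 1 in place of 5, with Wnt4 at -0.62. By adjusted p alone the counts were 8 at 1 day, 4 at 3 days and 2 at 1 week, and 1 for contralateral against naïve at 3 weeks. Of all probe sets tested 53.8%, 40.4%, 42.3% and 10.1% passed in these comparisons. The 3 criteria of the study gave 2 at 1 day (1456 of all 22626 probe sets). The methods' t-test, unadjusted, gave 3 at 3 days, 3 at 1 week and 2 at 3 months (7810, 7092 and 2790 of all 22626). For contralateral against naïve it gave 1, 1 and 2 at 1 day, 1 week and 3 weeks (1731, 1963 and 4713 of all). After Benjamini-Hochberg it gave 2 at 3 days, 2 at 1 week and 0 at 3 weeks (3540, 2106 and 414 of all). These were Wnt2 and Sfrp1 at 3 days, and Wnt4 and Dkk3 at 1 week, both under 2-fold (-0.81 and -0.17). Wnt2 thus lost its call by this t-test at 1 week (adjusted p = 0.051) and at 3 weeks (adjusted p = 0.06). At 3 weeks Wnt2 did not meet the 3 criteria of the study either. On the ratio of means of the methods' t-test, which the 3 criteria share, Sfrp2 was at 0.0054 at 3 days. Scaling to a common median put Wnt5a at -0.0003 at 1 week, and its dimmer probe set was at 0.16 at 3 weeks. With no filter on low values Sfrp2 was no longer called at 3 weeks (2.56, adjusted p = 0.064).

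With no replicate block in place of the pairing, 1 gene was called at 3 months (Wif1, adjusted p = 0.045) in place of 0, the count for 3 weeks against 1 day was 6 in place of 5, and no other call between crushed and contralateral ONHs changed. With each pair left out in turn, the counts of called genes ran from 4 to 6 at 1 day, from 2 to 3 at 3 weeks and from 4 to 6 for 3 weeks against 1 day, a range chosen after seeing the data for the last. Sfrp2 at 3 days ran from -1.06 to 0.30, Wnt5a at 1 week from -0.0384 to 0.19, Wnt4 at 3 weeks from -0.21 to 0.0018 and Sfrp1 at 3 months from -0.44 to 0.0367. At 3 months Wnt2 passed the filter on dim values only without pair 4, so the other 4 values were not run. The cause of these changes was not tested. Wnt2 in uninjured ONHs was near the lower end of the scale, and Sfrp2 had the widest spread of the 8 genes there.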

Other observations

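Over the 25 uninjured arrays, naïve and contralateral ONHs up to 3 weeks, the 5 genes most like Sfrp2 in level were Avpr1a, Mme, Col14a1, Nts and Epyc, with Pearson's r of log2 intensity from 0.85 to 0.90. Sfrp4, the other secreted frizzled-related gene called as higher at 3 weeks, stood at rank 9 (r = 0.83). This likeness was looked at after the values were seen, and the arrays share 5 groups, so it is a description with no test.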
